A study of Rattus norvegicus with 9 samples.

Results

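The Fox, Sox and Klf genes are 3 families of DNA-binding transcription factors, and they were followed here across 3 ages of cardiac fibroblasts from rats. These connective-tissue cells make the matrix of the heart. Members were chosen by gene symbol alone: genes of the deposited count table named Fox with a letter and number, Sox with a number or Klf with a number, except 1 Sox gene that was not analysed here. This gave 61 members among 17337 genes, namely 32 Fox, 15 Klf and 14 Sox genes. All 9 libraries came from hearts of Sprague Dawley rats with no genetic change or treatment given in the labels, 3 each from fetal rats at embryonic day 18, neonatal rats at postnatal day 1 and adult rats at 7 weeks. Cells of each age were grown to confluency in T75 flasks without passage, in DMEM with serum, antibiotics and ascorbic acid. No sorting step is given in the labels, so every measurement is bulk RNA of whatever grew in the flask, and fewer cells of a type and less RNA per cell cannot be told apart. The labels do not say whether the 3 libraries of an age came from separate litters, animals or flasks, so p-values measure the spread between these libraries, which may be technical.

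Forkhead (Fox) proteins bind DNA through a winged-helix domain and include the FoxO factors, which insulin and growth-factor signalling keep out of the nucleus, and FoxM1, which drives genes of cell division. Sox proteins bend DNA through a high-mobility-group domain and usually work beside partner factors, among them in the formation of neural crest, cartilage and vessels. Krüppel-like factors (Klf) bind GC-rich and CACCC sequences through zinc fingers, and several are switched on quickly by serum, shear flow, steroid hormones or TGF-beta. In the heart, members of all 3 families act in the development of the valves, septa and epicardium, and Klf15 is known as a brake on fibrosis and hypertrophy.

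Library totals ran from 13392825 to 22850491 assigned counts, and the members together took 0.125% to 0.156% of them. Levels below are counts per 1000000 (CPM) with library sizes scaled by TMM, differences are log2 fold changes, and all tests are edgeR quasi-likelihood tests over 11337 genes with Benjamini-Hochberg adjustment and a threshold of 0.05. The libraries of all ages share the estimate of each gene's spread, so fetal libraries also affect p-values of adult against neonatal. As a check of the labelled cell type, 11 fibroblast markers summed to 27030 to 78360 CPM, most of it from the collagen genes Col1a1 and Col3a1. By age the sums were 27590 to 54120 in fetal, 72110 to 78360 in neonatal and 27030 to 35590 CPM in adult libraries. Of the other fibroblast markers, Pdgfra was at 106 to 669 CPM and Tcf21 at 6.90 to 226 CPM, while Col1a2 had only 1 to 21 counts per library. Fetal replicate 3 stood apart from the other fetal libraries: its counts differed from theirs by a chi-square of 90.0 to 97.3 per degree of freedom, against 3.94 between the other 2. Its 9 lung epithelial markers summed to 242 CPM, against 3.62 and 4.41 in the other fetal libraries, and its fibroblast markers to 27590 against 54120 and 51000. The adult libraries carried 13 macrophage markers at a sum of 4423 to 6268 CPM, against 165 to 183 in neonatal and 15.1 to 73.8 in fetal libraries, and each of the 13 was higher in every adult library than in any younger one. The 11 cardiomyocyte markers went the other way, from 9042 to 12920 CPM in fetal libraries and 5921 to 6521 in neonatal ones to 304 to 318 in adult ones, where 2 of the 11 had no count in any library. The part of these cell types in the members' differences was not tested.

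**Figure D1:**
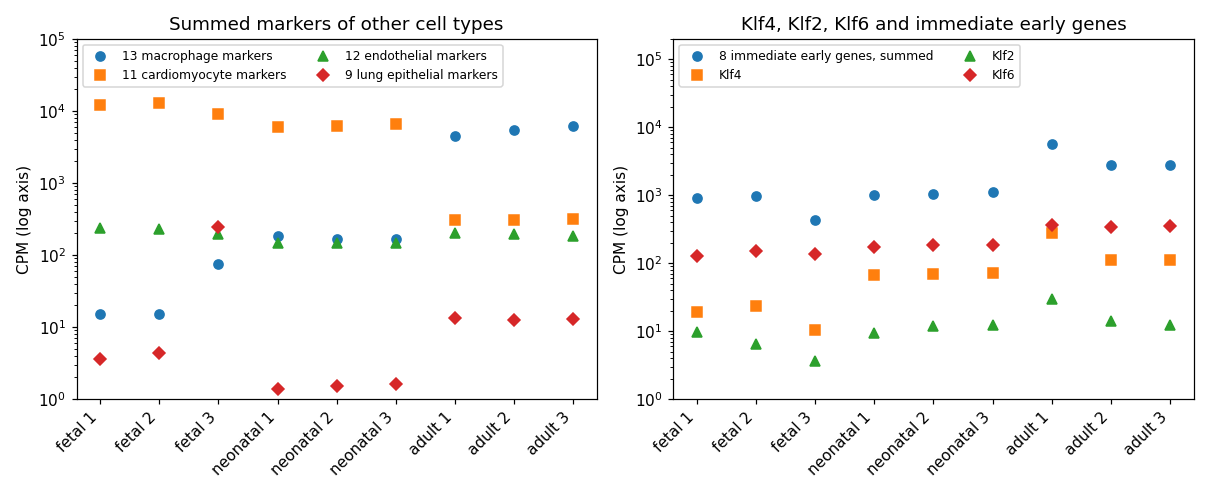
Summed CPM of markers of other cell types (left; macrophage, cardiomyocyte, endothelial and lung epithelial) and CPM of Klf4, Klf2, Klf6 and the sum of 8 immediate early genes (right), on log axes, 1 point per library. Macrophage markers sat at 4423 CPM or more in the adult libraries alone, lung epithelial markers reached 242 CPM in fetal replicate 3, and Klf4, Klf2 and the immediate early genes were highest in adult replicate 1.

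Of the 61 members, 39 had enough counts to be tested: 18 Fox, 13 Klf and 8 Sox genes. Between fetal and neonatal cells, 12 of the 39 (30.8%) passed the test, 6 higher and 6 lower in neonatal cells. Over all tested genes 36.3% passed, 18.3% higher and 18% lower, so the members' share was close to the background. Scaling by library size alone moved the median log2 fold change of all tested genes to -0.175 for neonatal against fetal and to -0.122 for adult against fetal. In neonatal against fetal the members' split then became 5 higher and 9 lower. Of all genes called in that pair, 29% were higher with this scaling, in place of 50.4%. Of the called members 35.7% were higher, in place of 50%. Between fetal and adult cells, 26 members (66.7%) passed, 9 higher and 17 lower in adult cells, where 70.5% of all genes passed, 34.9% higher and 35.5% lower. Between neonatal and adult cells, 21 members (53.8%) passed, 4 higher and 17 lower, where 63.5% of all genes passed, 31.6% higher and 31.8% lower. A test for any difference among the ages called 31 of the 39, or 79.5% against 77.6% of all genes. Without fetal replicate 3 the members higher in adult than in neonatal cells numbered 7 in place of 4, and without neonatal replicate 1 those lower in neonatal than in fetal cells numbered 3 in place of 6. The filter on low counts was run again in each such fit, so both numbers take in members outside the 39. Over all genes, 8322 passed in either direction between neonatal and adult cells without fetal replicate 3, in place of 7197. Between fetal and neonatal cells, 2607, 2476 and 2575 genes passed without neonatal replicate 1, 2 and 3, in place of 4114. The 3 comparisons share libraries, and their values are given side by side.

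The calls are also given by family, as a description with no test. Of the 13 tested Klf genes, 6 were higher and 1 lower in adult than in fetal cells, where 34.9% of all genes were higher and 35.5% lower. From fetal to neonatal cells 5 Klf genes were higher and none lower, and from neonatal to adult cells 3 were higher and 3 lower. Over all genes 18.3% were higher and 18% lower from fetal to neonatal cells. From neonatal to adult cells 31.6% of all genes were higher and 31.8% lower. Of the 18 tested Fox genes, 2 were higher and 11 lower in adult than in fetal cells, and 1 was higher and 9 lower in adult than in neonatal cells. Of the 8 tested Sox genes, 1 was higher and 5 lower than in fetal cells, and none was higher and 5 lower than in neonatal cells. The median log2 fold change from fetal to adult cells was 0.16 over the Klf, -0.51 over the Fox and -1.09 over the Sox genes, against -0.01 over all tested genes.

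**Figure D2:**
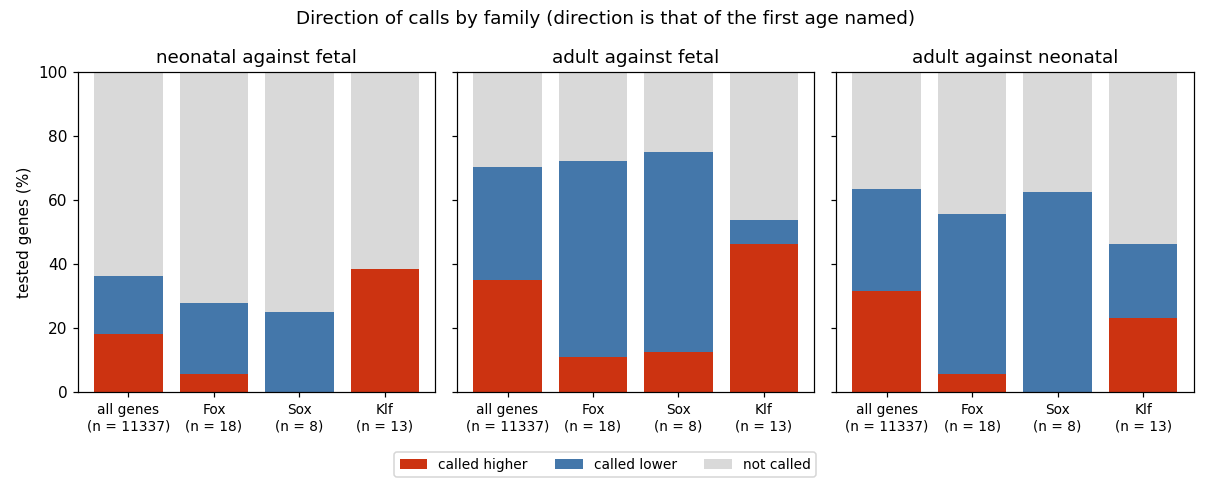
Share of tested genes called higher, called lower or not called (edgeR adjusted p under 0.05) in each pair of ages, for all 11337 genes and the 18 Fox, 8 Sox and 13 Klf members. In adult against fetal cells 61.1% of the Fox and 62.5% of the Sox genes were lower, against 35.5% of all genes. Of the Klf genes 46.2% were higher, against 34.9% of all genes.

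Klf4, Klf6 and Klf15 were among the Klf genes that rose from fetal to adult cells, and their promoters are shown for that reason, although the steps at which they rose were not the same. RefSeq (GRCr8) windows of 300 bases, from 250 before to 50 after the annotated start, matched 38 of the 61 members by symbol. Capitals mark, on either strand, the CACCC box, the GC box GGGCGG, the TATA box TATAAA and the CArG box bound by serum response factor. The windows lie at chr17:69458429-69458728, minus strand, for Klf6, at chr5:75078543-75078842, minus strand, for Klf4, and at chr4:124522765-124523064, plus strand, for Klf15.
Klf6: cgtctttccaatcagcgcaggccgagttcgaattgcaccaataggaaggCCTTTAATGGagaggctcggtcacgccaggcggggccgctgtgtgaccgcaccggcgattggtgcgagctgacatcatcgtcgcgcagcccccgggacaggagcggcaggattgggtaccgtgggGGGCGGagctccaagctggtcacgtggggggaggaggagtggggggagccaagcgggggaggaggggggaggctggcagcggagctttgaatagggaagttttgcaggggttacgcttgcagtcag
Klf4: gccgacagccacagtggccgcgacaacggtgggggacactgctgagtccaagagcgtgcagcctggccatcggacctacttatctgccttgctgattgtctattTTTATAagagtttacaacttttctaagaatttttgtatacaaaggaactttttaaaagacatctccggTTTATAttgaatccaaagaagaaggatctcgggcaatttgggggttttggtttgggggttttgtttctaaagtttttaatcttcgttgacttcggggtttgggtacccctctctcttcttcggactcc
Klf15: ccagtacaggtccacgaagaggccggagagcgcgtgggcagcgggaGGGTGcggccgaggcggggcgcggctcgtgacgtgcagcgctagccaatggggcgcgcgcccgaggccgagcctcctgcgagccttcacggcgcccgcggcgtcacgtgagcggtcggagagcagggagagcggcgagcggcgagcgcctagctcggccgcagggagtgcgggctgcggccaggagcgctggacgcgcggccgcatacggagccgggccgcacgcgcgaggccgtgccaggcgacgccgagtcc
The Klf6 window held a CArG box and a GC box, that of Klf4 held TATAAA and no GC box, and that of Klf15 held a CACCC box. A CArG box was found in 2 of the 38 member windows (5.26%), Klf6 and Foxe3, and in 1.64% of all 33469 windows. TATAAA was found in 5 member windows (13.2%) and in 14.2% of all windows. Such matches are descriptions of the letters, not of binding.

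Klf4, a factor of stem-cell maintenance and of smooth muscle and macrophage states, rose at each step (chr5:72283311-72287669 on rn6). It stood at 19.00, 23.3 and 10.4 CPM in the fetal, 66.7, 69.1 and 71.8 in the neonatal and 279.8, 113 and 111 in the adult libraries. No 2 ages overlapped, and adult replicate 1 was more than any other library. Adult cells exceeded fetal cells by far (log2 fold change 3.25, SE 0.418, edgeR adjusted p = 0.000119), and neonatal cells exceeded fetal cells too (log2 fold change 1.97, SE 0.404, edgeR adjusted p = 0.00642). From neonatal to adult cells the rise was smaller (log2 fold change 1.28, SE 0.384, edgeR adjusted p = 0.0171). This last call was lost without neonatal replicate 1 (edgeR adjusted p = 0.0543) or replicate 2 (edgeR adjusted p = 0.0525), and without adult replicate 1 the log2 fold change was 0.70 (edgeR adjusted p = 0.042) and the adult mean 112 CPM in place of 168 ± 96.7 (SD, n = 3).

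Klf6, a broadly expressed factor induced by injury (chr17:67895923-67904918 on rn6), also rose at each step. Its level was 128, 149 and 137 CPM in the fetal, 174, 182 and 184 in the neonatal and 366, 342 and 351 in the adult libraries. The libraries of each age lay close together and the ages did not overlap. Adult cells were higher than fetal cells (log2 fold change 1.36, SE 0.0717, edgeR adjusted p = 2.87e-07) and than neonatal cells (log2 fold change 0.97, SE 0.0711, edgeR adjusted p = 3.69e-06). The smaller rise from fetal to neonatal cells (log2 fold change 0.38, SE 0.0707, edgeR adjusted p = 0.00337) was not called with scaling by library size alone (log2 fold change 0.21, edgeR adjusted p = 0.058).

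Klf15, which controls amino-acid and lipid use and responds to glucocorticoids (chr4:122365093-122377688 on rn6), stood at 4.10, 3.57 and 1.22 CPM in the fetal, 9.74, 9.71 and 11.1 in the neonatal and 20.4, 14.1 and 12.9 in the adult libraries. Every neonatal and adult library was above every fetal library. Neonatal cells were higher than fetal cells (log2 fold change 1.77, SE 0.360, edgeR adjusted p = 0.00568), and so were adult cells (log2 fold change 2.41, SE 0.362, edgeR adjusted p = 0.000269). Adult against neonatal did not pass (log2 fold change 0.64, edgeR adjusted p = 0.125), although every adult library was above every neonatal one, and it did pass without fetal replicate 3 (edgeR adjusted p = 0.00524). It also passed in a fit of these 2 ages alone (log2 fold change 0.63, edgeR adjusted p = 0.00895).

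Klf2, known as a flow-responsive factor of endothelium and as a brake on macrophage activation, rose from fetal to adult cells. Its level was 9.66, 6.43 and 3.61 CPM in the fetal, 9.41, 11.8 and 12.1 in the neonatal and 29.5, 13.9 and 12.4 in the adult libraries. The adult libraries all lay above the fetal ones, with adult replicate 1 the highest (log2 fold change 1.497, SE 0.404, edgeR adjusted p = 0.00874). Against neonatal cells the adult difference did not pass (log2 fold change 0.74, edgeR adjusted p = 0.131).

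Adult replicate 1 had the highest level of Klf2, Klf4, Klf6 and Klf15, and of 8 of the 39 tested members in all (20.5%, against 19.4% of all tested genes). The 8 immediate early genes Fos, Fosb, Jun, Junb, Egr1, Atf3, Ier2 and Dusp1, a list chosen after the members' values were seen, summed to 5679 CPM in that library, 2750 and 2747 in the other adult libraries and 438 to 1103 in the rest. Each of the 8 was higher in every adult library than in any younger one. Their part and that of macrophage RNA in the Klf differences were not tested.

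**Figure D3:**
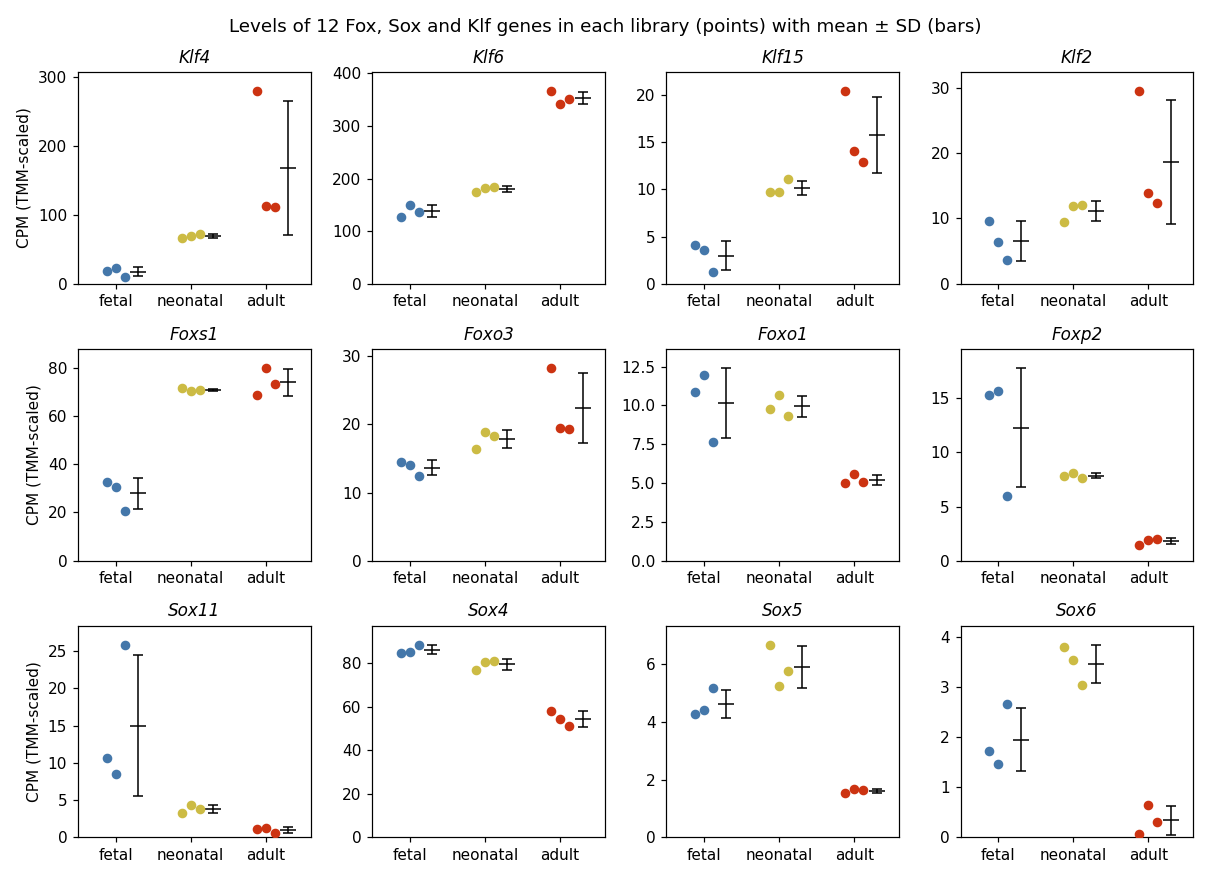
CPM of 12 members in each library (points, fetal, neonatal and adult from left to right, replicates 1 to 3 in order) with the mean and SD of the 3 libraries (bars). Klf4 and Klf2 were highest in adult replicate 1, at 279.8 and 29.5 CPM, and Sox11 in fetal replicate 3, at 25.9 CPM.

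Klf3, a repressor that recruits CtBP, peaked in neonatal cells. It stood at 81.8, 85.4 and 63.4 CPM in the fetal, 124, 129 and 119 in the neonatal and 97.8, 81.8 and 78.4 in the adult libraries. All neonatal libraries were above all others, and fetal and adult libraries overlapped. It rose from fetal to neonatal cells (log2 fold change 0.69, SE 0.121, edgeR adjusted p = 0.00266) and fell from neonatal to adult cells (log2 fold change -0.53, SE 0.121, edgeR adjusted p = 0.00393). Klf10, an early gene of TGF-beta signalling, was at 40.1, 40.6 and 32.98 CPM in the fetal, 52.5, 56.1 and 53.6 in the neonatal and 46.7, 46.9 and 46.6 in the adult libraries. The fetal libraries were the lowest, and it was higher in neonatal (log2 fold change 0.51, edgeR adjusted p = 0.00207) and adult cells (log2 fold change 0.30, edgeR adjusted p = 0.0106) than in fetal cells. Klf12, a repressor, was the 1 Klf gene that fell from fetal to adult cells. It stood at 7.34, 7.45 and 9.88 CPM in the fetal, 9.74, 7.39 and 6.79 in the neonatal and 2.91, 2.53 and 3.59 in the adult libraries, with every adult library below every other (log2 fold change -1.45, SE 0.219, edgeR adjusted p = 0.000254).

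Klf9, a target of glucocorticoid and thyroid hormone, did not pass in any pair. Its level was 46.2, 48.9 and 18.00 CPM in the fetal, 54.7, 56.9 and 52.9 in the neonatal and 37.2, 29.96 and 26.8 in the adult libraries, and fetal replicate 3 lay far below the other fetal libraries. Without that library Klf9 fell from fetal to adult cells (log2 fold change -0.61, edgeR adjusted p = 0.000481) and from neonatal to adult cells (log2 fold change -0.81, edgeR adjusted p = 2.82e-05). In a fit of neonatal and adult cells alone Klf9 passed too (log2 fold change -0.82, edgeR adjusted p = 0.000134). Klf5, a promoter of growth in smooth muscle, was at 2.92, 2.73 and 5.47 CPM in the fetal, 2.04, 2.37 and 2.01 in the neonatal and 2.83, 1.88 and 1.57 in the adult libraries and did not pass either (log2 fold change -0.82, edgeR adjusted p = 0.0522 for adult against fetal). Adult against fetal did pass for Klf5 without fetal replicate 1, fetal replicate 2 or adult replicate 1. It also passed with scaling by library size only (edgeR adjusted p = 0.0384). Of the remaining tested Klf genes, Klf16 rose from fetal to adult cells (log2 fold change 0.35, edgeR adjusted p = 0.00247) and Klf7 fell from neonatal to adult cells (log2 fold change -0.57, edgeR adjusted p = 0.00314). Klf11 passed in no pair, but without adult replicate 1 it was lower in adult than in fetal (edgeR adjusted p = 0.0174) and neonatal cells (edgeR adjusted p = 0.00439). Klf13 passed in no pair either, with a mean of 0.785 CPM in neonatal and 2.002 CPM in fetal cells, or 1.28 CPM in fetal cells without fetal replicate 3. Without fetal replicate 2 it was lower in neonatal (edgeR adjusted p = 0.0149) and adult (edgeR adjusted p = 0.0102) than in fetal cells.

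Among the Sox genes, the SoxC group of Sox4, Sox11 and Sox12 acts in neural, mesenchymal and outflow-tract progenitors. All 3 were lower in adult than in fetal cells. Sox4, the most abundant Sox member, stood at 84.8, 85.4 and 88.5 CPM in the fetal, 76.8, 80.7 and 80.9 in the neonatal and 58.2, 54.4 and 50.98 in the adult libraries. Every adult library was below every other (log2 fold change -0.66, SE 0.0656, edgeR adjusted p = 1.59e-05 against fetal, log2 fold change -0.54, edgeR adjusted p = 8.24e-05 against neonatal), and fetal against neonatal did not pass (log2 fold change -0.12, edgeR adjusted p = 0.178).

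Sox11 (chr6:46629971-46631988 on rn6) had the largest fall of any Sox gene from fetal to adult cells. Its promoter window and that of Foxq1, the Fox gene with the largest fall, are shown with the same capitals, at chr6:49738745-49739044, minus strand, for Sox11 and at chr17:33124038-33124337, minus strand, for Foxq1 (GRCr8).
Sox11: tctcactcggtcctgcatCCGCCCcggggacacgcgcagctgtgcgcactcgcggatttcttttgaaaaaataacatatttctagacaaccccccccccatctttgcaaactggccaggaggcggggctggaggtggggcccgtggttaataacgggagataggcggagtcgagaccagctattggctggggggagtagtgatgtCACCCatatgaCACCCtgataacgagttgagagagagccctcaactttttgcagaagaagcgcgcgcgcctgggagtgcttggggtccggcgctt
Foxq1: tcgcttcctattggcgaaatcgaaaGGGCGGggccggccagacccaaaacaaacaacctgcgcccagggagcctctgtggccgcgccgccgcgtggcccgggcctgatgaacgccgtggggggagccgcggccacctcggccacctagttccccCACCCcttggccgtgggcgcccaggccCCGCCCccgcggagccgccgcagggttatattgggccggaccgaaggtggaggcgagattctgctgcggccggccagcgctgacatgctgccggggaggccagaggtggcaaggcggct
Both windows held CACCC boxes and GC boxes, and neither held TATAAA. The CACCC box was found in 24 of the 38 member windows (63.2%) against 54.9% of all windows, and GGGCGG in 20 (52.6%) against 33.1%. The median GC content was 62.0% over member windows and 51.7% over all windows. Sox motifs were found at ACAAAG in 8 member windows (21.1% against 18.8% of all) and at ACAATG in 1 (2.63% against 13.2%), and the forkhead motif GTAAACA in 2 (5.26% against 3.78%). The AP-1 motif TGANTCA was found in 3 (7.89% against 7.33%) and the cyclic AMP element TGACGTCA in none (1.83% of all).

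Sox11 stood at 10.6, 8.55 and 25.9 CPM in the fetal, 3.25, 4.37 and 3.75 in the neonatal and 1.15, 1.23 and 0.599 in the adult libraries. Each age lay wholly below the one before it, and fetal replicate 3 was far above the other fetal libraries. It fell from fetal to neonatal (log2 fold change -1.98, SE 0.411, edgeR adjusted p = 0.00627), from fetal to adult (log2 fold change -3.91, SE 0.490, edgeR adjusted p = 8.22e-05) and from neonatal to adult cells (log2 fold change -1.93, SE 0.506, edgeR adjusted p = 0.00837). Without fetal replicate 3 the fetal mean was 9.59 in place of 15.02 ± 9.45 CPM (SD, n = 3), and the log2 fold changes were -1.33 to neonatal (edgeR adjusted p = 0.000523) and -3.26 to adult cells (edgeR adjusted p = 5.92e-07). Sox12 stood at 11.1, 6.88 and 11.05 CPM in the fetal, 4.46, 5.39 and 5.11 in the neonatal and 4.21, 3.25 and 2.32 in the adult libraries. It fell from fetal to adult cells (log2 fold change -1.57, SE 0.261, edgeR adjusted p = 0.000478). Its fall from fetal to neonatal cells (log2 fold change -0.95, edgeR adjusted p = 0.0163) was lost without neonatal replicate 1 (edgeR adjusted p = 0.0677) or 3 (edgeR adjusted p = 0.0551).

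The SoxD genes Sox5 and Sox6, co-activators of cartilage genes, were likewise lower in adult cells than at both earlier ages. Neonatal against fetal cells did not pass for Sox5 (log2 fold change 0.35, edgeR adjusted p = 0.129) or Sox6 (log2 fold change 0.83, edgeR adjusted p = 0.119). Sox5 was at 4.27, 4.41 and 5.15 CPM in the fetal, 6.66, 5.25 and 5.76 in the neonatal and 1.53, 1.66 and 1.65 in the adult libraries. All adult libraries lay below all others (log2 fold change -1.51, SE 0.189, edgeR adjusted p = 7.32e-05 against fetal, log2 fold change -1.86, edgeR adjusted p = 2.75e-05 against neonatal). Sox6 was at 1.73, 1.45 and 2.66 CPM in the fetal, 3.80, 3.53 and 3.04 in the neonatal and 0.0765, 0.650 and 0.299 in the adult libraries, with no overlap of the adult libraries with the others. Its log2 fold change from fetal to adult cells was -2.46 (SE 0.507, edgeR adjusted p = 0.00178), or -3.31 without adult replicate 2 (edgeR adjusted p = 0.000989). From neonatal to adult cells it was -3.30 (SE 0.495, edgeR adjusted p = 0.000321), or -4.15 without that library (edgeR adjusted p = 0.000373). Sox13, the third SoxD gene, was at 26.2, 22.1 and 20.1 CPM in the fetal, 25.97, 26.8 and 27.8 in the neonatal and 19.7, 18.99 and 20.8 in the adult libraries and passed only from neonatal to adult cells (log2 fold change -0.43, edgeR adjusted p = 0.00556).

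The SoxF genes Sox7, Sox17 and Sox18 mark endothelium and act in vessel formation. Sox7 was at most 1.99 CPM in any library and exceeded the fetal level in adult cells (log2 fold change 2.10, SE 0.546, edgeR adjusted p = 0.00671), with a log2 fold change of 2.98 without fetal replicate 3 (edgeR adjusted p = 0.000335). Sox17 and Sox18 had too few counts to be tested, with 4, 1 and 7 counts in the fetal, 2, 5 and 3 in the neonatal and 17, 6 and 1 in the adult libraries for Sox17. Sox18 had 1, 1 and 0 counts in the fetal, 1, 1 and 4 in the neonatal and 12, 14 and 1 in the adult libraries. Sums of 12 endothelial markers were 197 to 238 CPM in fetal, 148 to 149 in neonatal and 185 to 203 in adult libraries. The single markers went both ways. Of 10 tested, 4 were higher and 2 lower in adult than in fetal cells (median log2 fold change 1.22), against 34.9% and 35.5% of all genes. In neonatal against fetal cells 4 were higher and 1 lower (median 0.74), against 18.3% and 18% of all genes. The part of endothelial RNA in the SoxF values was not tested. Sox10, a factor of neural crest and Schwann cells, passed in no pair at 1.46, 0.705 and 2.02 CPM in the fetal, 0.990, 1.07 and 0.776 in the neonatal and 1.30, 0.722 and 0.973 in the adult libraries. Its relative Sox8 was not tested, with 7, 6 and 21 counts in the fetal, 7, 1 and 2 in the neonatal and 3, 0 and 8 in the adult libraries.

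Among the Fox genes, Foxs1, a forkhead gene of perivascular and neural-crest cells, had the largest rise from fetal to adult cells. It stood at 32.7, 30.5 and 20.6 CPM in the fetal, 71.6, 70.7 and 70.9 in the neonatal and 68.8, 80.1 and 73.4 in the adult libraries. All neonatal and adult libraries were above all fetal ones, and neonatal and adult libraries overlapped. It rose from fetal to neonatal (log2 fold change 1.35, SE 0.149, edgeR adjusted p = 0.000247) and from fetal to adult cells (log2 fold change 1.41, SE 0.150, edgeR adjusted p = 2.51e-05), with no call between neonatal and adult (log2 fold change 0.06, edgeR adjusted p = 0.731). Markers of mural cells, 8 genes, summed to 1116 to 2501 CPM in fetal, 4311 to 4430 in neonatal and 1548 to 1910 in adult libraries, and their part was not tested.

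The FoxO genes, effectors of insulin and stress signalling, did not move together. Foxo1 stood at 10.9, 11.99 and 7.65 CPM in the fetal, 9.79, 10.7 and 9.32 in the neonatal and 4.97, 5.56 and 5.09 in the adult libraries. Every adult library was below every other (log2 fold change -0.96, SE 0.181, edgeR adjusted p = 0.001 against fetal, log2 fold change -0.93, edgeR adjusted p = 0.00157 against neonatal). Foxo3 was at 14.4, 14.1 and 12.4 CPM in the fetal, 16.4, 18.9 and 18.4 in the neonatal and 28.3, 19.5 and 19.4 in the adult libraries, with all adult libraries above all fetal ones (log2 fold change 0.72, SE 0.156, edgeR adjusted p = 0.00243). Adult against neonatal did not pass for Foxo3 (log2 fold change 0.32, edgeR adjusted p = 0.0944). Foxo4 fell from fetal to adult cells (log2 fold change -0.31, edgeR adjusted p = 0.0294), a call that was lost without fetal replicate 1, adult replicate 2 or adult replicate 3 (edgeR adjusted p of 0.0551, 0.0706 and 0.0914).

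Of 17 tested genes that FoxO factors are known to switch on, 10 were higher and 4 lower in adult against fetal cells, where 34.9% of all genes were higher and 35.5% lower. The median log2 fold change of the 17 was 0.56. Without fetal replicate 3 the counts were the same and the median was 0.37. Without adult replicate 1, 8 were higher and the median was 0.38, the calls of Cat (edgeR adjusted p = 0.0676) and Txnip (edgeR adjusted p = 0.0556) being lost. Sod2, the mitochondrial superoxide dismutase, stood at 70.9, 69.2 and 61.5 CPM in the fetal libraries and 1007, 702 and 531 in the adult ones (log2 fold change 3.47, SE 0.211, edgeR adjusted p = 8.52e-07). Fbxo32, a ubiquitin ligase of muscle wasting, went from 3.98 ± 0.0634 to 21.7 ± 4.19 CPM (SD, n = 3; log2 fold change 2.44, edgeR adjusted p = 1.16e-06). The 4 lower genes were Trim63, Pdk4, Irs2 and Insr. Trim63, a muscle ubiquitin ligase, went from 16.7 to 0.372 CPM, in the direction of the cardiomyocyte markers, whose part was not tested. Of 14 tested regulators of FoxO, 3 were higher and 7 lower in adult than in fetal cells. Sgk1, a kinase that inhibits FoxO, went from 18.2 ± 4.34 to 153 ± 7.53 CPM (SD, n = 3; log2 fold change 3.08, edgeR adjusted p = 1.77e-07), and Mdm2, a ubiquitin ligase, from 185 ± 7.68 to 104 ± 4.17 CPM (log2 fold change -0.83, edgeR adjusted p = 1.86e-06).

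Foxm1, the factor of mitotic gene expression, fell from fetal to adult cells. It stood at 35.7, 39.01 and 49.5 CPM in the fetal, 35.3, 35.03 and 34.4 in the neonatal and 21.1, 27.8 and 28.5 in the adult libraries. Fetal replicate 3 was the highest library and every adult library was below every other (log2 fold change -0.68, SE 0.144, edgeR adjusted p = 0.00203). The fall from neonatal to adult cells (log2 fold change -0.43, edgeR adjusted p = 0.0246) did not hold without neonatal replicate 1, 2 or 3 or adult replicate 1 (edgeR adjusted p = 0.0524 to 0.0741). Of 14 tested FoxM1 targets, 11 fell and none rose from fetal to adult cells (median log2 fold change -0.84), and 9 were lower and none higher in neonatal than in fetal cells (median -0.63). Of all tested genes 35.5% and 18% were lower in these pairs. From neonatal to adult cells 5 were lower and 1 higher, where 31.8% of all genes were lower and 31.6% higher. Cenpf, a kinetochore protein, was at 104, 112 and 183 CPM in fetal and 32.4, 41.2 and 43.1 CPM in adult libraries (log2 fold change -1.77, edgeR adjusted p = 5.99e-05). All 14 were highest in fetal replicate 3. Without that library, 10 fell from fetal to adult cells (median log2 fold change -0.61) and 9 from fetal to neonatal cells (median -0.40). From neonatal to adult cells 7 then fell and 1 rose. Of all 11519 genes tested in that fit, 8616, 4679 and 8322 passed in either direction in these pairs.

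Foxp1, Foxp2 and Foxp4, repressors of lung, heart and neural development, were all lower in adult than in fetal cells. Foxp1, the most abundant of them, was at 96.8, 93.3 and 72.7 CPM in the fetal, 94.1, 93.6 and 85.1 in the neonatal and 53.6, 62.8 and 66.8 in the adult libraries. Every adult library was below every other (log2 fold change -0.52, SE 0.120, edgeR adjusted p = 0.00349 against fetal, log2 fold change -0.57, edgeR adjusted p = 0.00238 against neonatal). Foxp2 was at 15.3, 15.6 and 5.95 CPM in the fetal, 7.81, 8.13 and 7.64 in the neonatal and 1.45, 1.95 and 2.02 in the adult libraries, with fetal replicate 3 below the neonatal libraries and no adult library near the others. It fell from fetal to adult (log2 fold change -2.76, SE 0.366, edgeR adjusted p = 0.000107) and from neonatal to adult cells (log2 fold change -2.11, SE 0.368, edgeR adjusted p = 0.000802), and from fetal to neonatal cells it passed only without fetal replicate 3 (log2 fold change -0.98, edgeR adjusted p = 0.000135). Foxp4 was lower in neonatal (log2 fold change -0.57, edgeR adjusted p = 0.000544) and adult cells (log2 fold change -0.49, edgeR adjusted p = 0.000234) than in fetal cells, from a fetal mean of 66.8 ± 5.18 CPM (SD, n = 3).

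Foxq1, known from epithelia, and Foxa2, a pioneer factor of endoderm such as lung and liver, were low and varied among the fetal libraries. Foxq1 had 43, 66 and 225 counts in the fetal, 7, 13 and 10 in the neonatal and 0, 0 and 0 in the adult libraries, and its fetal levels were 2.32, 2.91 and 11.9 CPM. Adult libraries were therefore at least 25.6-fold lower than the fetal mean of 5.73 ± 5.40 CPM (SD, n = 3), taking 3 counts per library as the limit that a count of 0 allows (edgeR adjusted p = 0.000953). Without fetal replicate 3 the adult level was still at least 11.7-fold below the fetal mean (edgeR adjusted p = 9.05e-06). The fall from neonatal to adult cells was at least 2.44-fold (edgeR adjusted p = 0.0376), a call lost without neonatal replicate 2 or 3 or without any of the adult libraries (edgeR adjusted p = 0.0649 to 0.0695). The fall from fetal to neonatal cells (log2 fold change -3.37, SE 0.754, edgeR adjusted p = 0.0137) was lost without neonatal replicate 1 (edgeR adjusted p = 0.0578) or 2 (edgeR adjusted p = 0.0548), and without fetal replicate 3 its log2 fold change was -2.25 (edgeR adjusted p = 0.000829).

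Foxa2 was at 2.81, 1.81 and 7.06 CPM in the fetal, 0.880, 1.49 and 1.16 in the neonatal and 4.97, 3.54 and 5.02 in the adult libraries. The neonatal libraries were below all others, and fetal and adult libraries overlapped. Adult cells were higher than neonatal cells (log2 fold change 1.92, SE 0.496, edgeR adjusted p = 0.00748). The difference of neonatal from fetal cells (log2 fold change -1.70, edgeR adjusted p = 0.0246) did not hold when a neonatal library was left out (edgeR adjusted p = 0.0544 to 0.0904), and without fetal replicate 3 its log2 fold change was -0.94 (edgeR adjusted p = 0.0341). Without that library adult cells were also higher than fetal cells (log2 fold change 0.97, edgeR adjusted p = 0.00883). Lung epithelial markers summed to 12.5 to 13.5 CPM in adult and 1.38 to 1.62 CPM in neonatal libraries. Nearly all of the adult sum was Napsa, at 11.2 to 12.9 CPM, and 7 of the 9 markers had at most 3 counts in every adult library, 4 of them none. The part of these cells in Foxa2 and Foxq1 was not tested.

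Foxc1 and Foxc2, which act in the mesenchyme of the outflow tract and in vessels, are on different chromosomes, and Foxc1 lies 272.8 kb from Foxq1 on chromosome 17, the only pair of members within 500 kb on rn6. Foxc1 was at 15.5, 13.1 and 7.91 CPM in the fetal, 14.6, 17.1 and 17.1 in the neonatal and 21.1, 9.68 and 8.38 in the adult libraries and passed in no pair, with the ages overlapping. Without adult replicate 1 it fell from neonatal to adult cells (log2 fold change -0.85, edgeR adjusted p = 0.0223). Foxc2 was at 53.6, 42.4 and 19.3 CPM in the fetal, 34.99, 37.8 and 38.1 in the neonatal and 19.4, 19.9 and 18.3 in the adult libraries. It fell from fetal to adult cells (log2 fold change -1.004, SE 0.304, edgeR adjusted p = 0.0156), although fetal replicate 3 fell within the adult range. Its fall from neonatal to adult cells (log2 fold change -0.95, edgeR adjusted p = 0.0233) was lost without neonatal replicate 2 or 3 or without any of the adult libraries (edgeR adjusted p = 0.0522 to 0.0631).

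Foxk2, a repressor of autophagy genes, was among the most abundant Fox members and passed in no pair, at 117, 109.8 and 141 CPM in the fetal, 108, 120.3 and 113 in the neonatal and 107, 109.6 and 114 in the adult libraries. Its relative Foxk1 was lower in neonatal (log2 fold change -0.39, edgeR adjusted p = 0.0366) and adult cells (log2 fold change -0.53, edgeR adjusted p = 0.0042) than in fetal cells. The neonatal call of Foxk1 was lost without fetal replicate 1 or 2, any neonatal library or adult replicate 2 (edgeR adjusted p = 0.0541 to 0.151). Foxn3, a checkpoint repressor, was lower in adult than in fetal (log2 fold change -0.82, edgeR adjusted p = 0.00104) and neonatal cells (log2 fold change -1.01, edgeR adjusted p = 0.000364), and so was Foxj3 (log2 fold change -0.28, edgeR adjusted p = 0.00931 against fetal, log2 fold change -0.43, edgeR adjusted p = 0.000896 against neonatal). Foxj2 passed only between neonatal and adult cells (log2 fold change -0.23, edgeR adjusted p = 0.0454), and this call did not hold when a neonatal or adult library was left out (edgeR adjusted p = 0.0618 to 0.13). Foxn1, a thymus factor, was below 2 CPM on average at every age and passed in no pair.

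**Figure D4:**
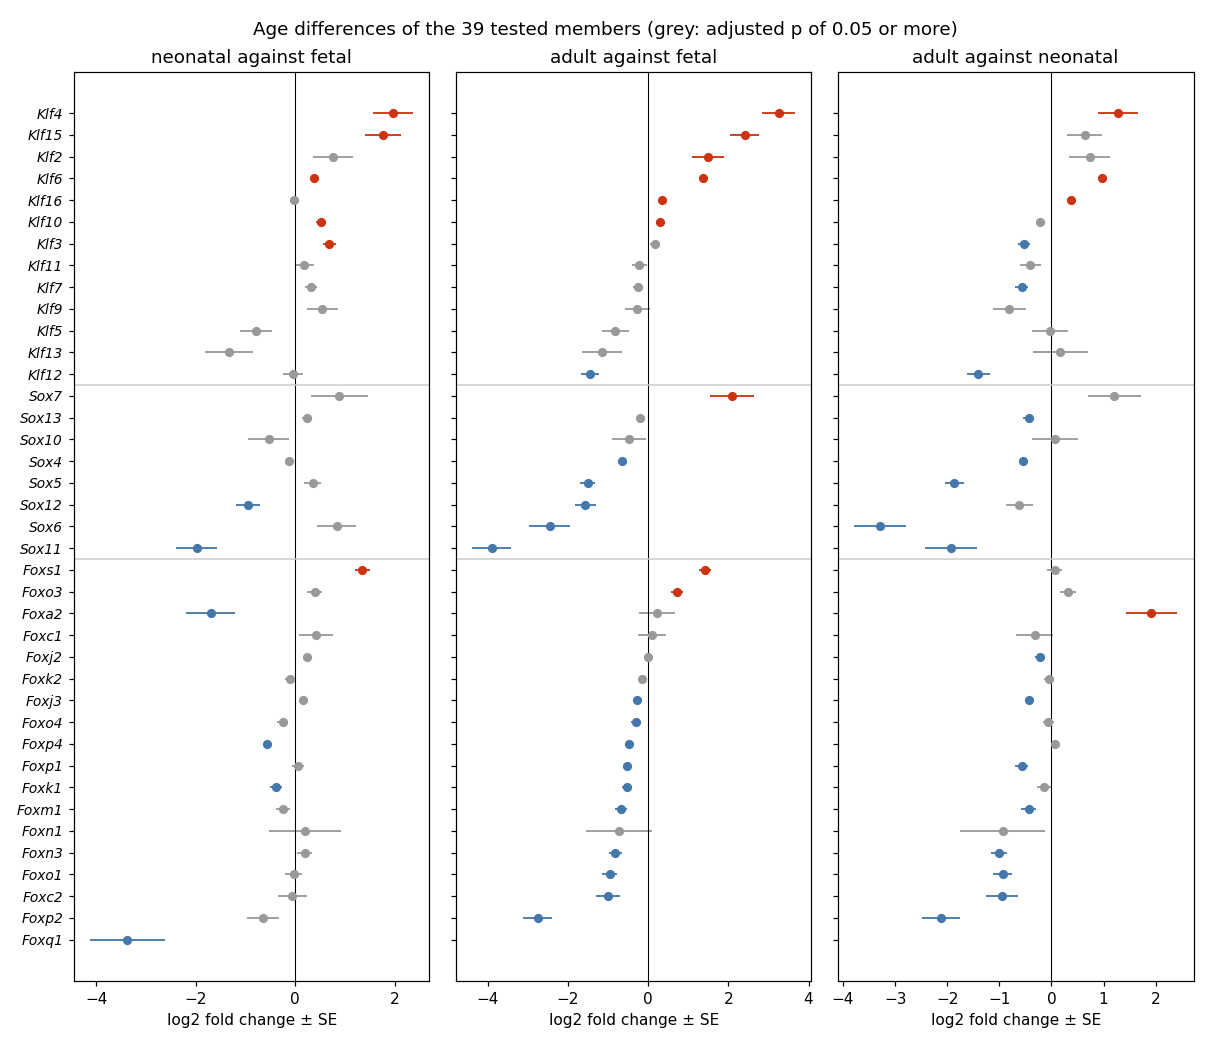
Log2 fold change and its SE (bars) of the 39 tested members in each pair of ages, grouped as Klf, Sox and Fox from top to bottom and sorted by adult against fetal. Red is called higher, blue called lower and grey not called. Foxq1, with no adult count, is drawn only for neonatal against fetal. Sox11 and Foxp2 had the lowest values drawn for adult against fetal, at -3.91 and -2.76, and Klf4 the highest, at 3.25.

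Per kilobase of exon, which allows levels to be compared between genes, the members spanned a wide range. Klf6 had the highest mean over all libraries, 53.2 reads per kilobase per 1000000 (RPKM), followed by Foxs1 at 45.4, Foxp1 at 36.2 and Klf4 at 35.9 RPKM. Klf6 lay at percentile 84.1 of the tested genes. Klf4 had 7.42 RPKM in fetal, 29.2 in neonatal and 70.97 in adult cells, from below Sox4 to near the top of the families. Sox4 led the Sox genes at 15.6 RPKM, ahead of Sox13 at 6.50 and Sox12 at 5.86 RPKM. Sox7 was the lowest tested member at 0.236 RPKM.

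**Figure D5:**
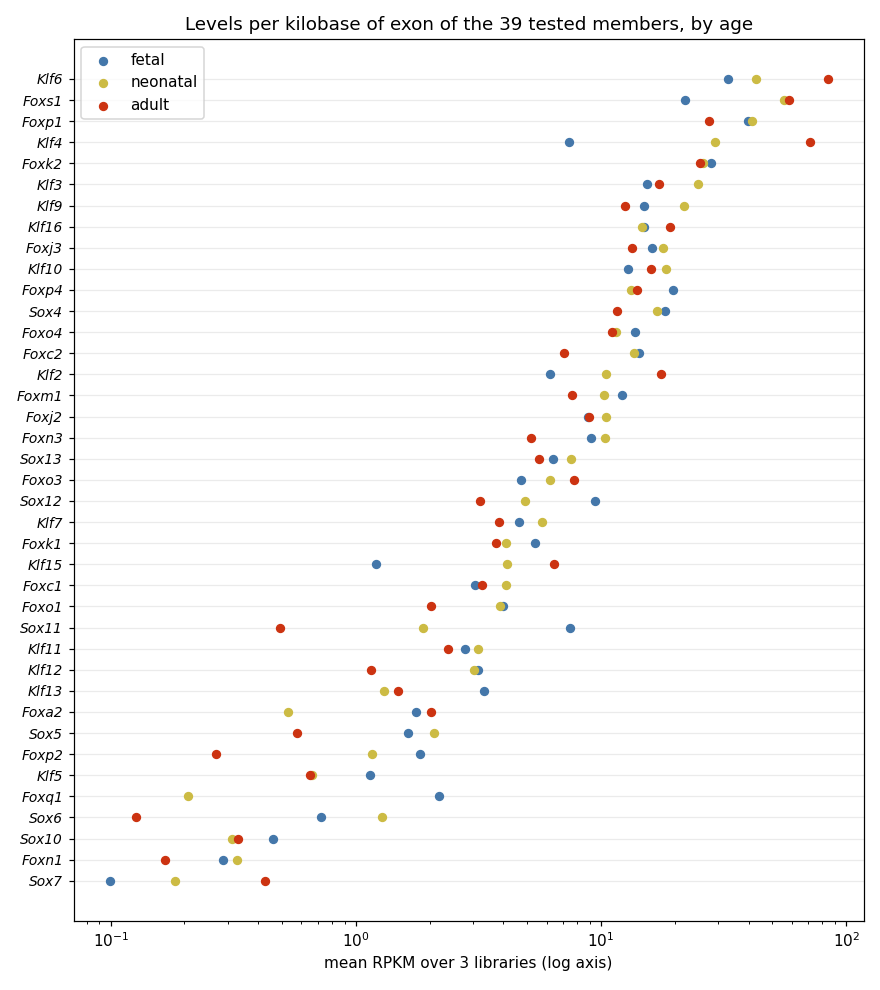
Mean RPKM over 3 libraries (log axis) of the 39 tested members at each age, ordered by the mean over all libraries. Klf6 was highest at 53.2 RPKM and Sox7 lowest at 0.236 RPKM over all libraries. Foxq1 has no adult point because its adult level was 0.

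Other genes of the same pathways are given beside the 34.9% of all genes that were higher and the 35.5% that were lower in adult than in fetal cells. For the corepressors, the KLF15 and KLF9 targets and the beta-catenin genes, the share called in either direction was below the 70.5% of all genes. Without fetal replicate 3 this did not hold for the corepressors or the beta-catenin genes. In that fit 6 of 8 corepressors were lower and 1 higher, and 3 of 4 beta-catenin genes were lower. Of all genes, 8616 of 11519 then passed. Of 3 tested Sp genes, which share GC-box binding with the Klf family, all 3 were lower in adult than in fetal cells, such as Sp1 (105 ± 1.81 to 78.97 ± 11.4 CPM, SD, n = 3; log2 fold change -0.42, edgeR adjusted p = 0.00332) and Sp4 (log2 fold change -1.73, edgeR adjusted p = 0.000239). Of 8 corepressors that Klf and Foxp factors recruit, 4 were lower and 1 higher, Hdac2 (log2 fold change -0.72, edgeR adjusted p = 7.42e-06) and Ncor1 (log2 fold change -0.67, edgeR adjusted p = 1.14e-05) among the lower. Of 6 tested targets of KLF2 and KLF4, 4 rose and 1 fell from fetal to adult cells (median log2 fold change 0.62). The lower gene was S1pr1, a sphingosine phosphate receptor, at 18.3 ± 0.980 and 4.97 ± 0.612 CPM (SD, n = 3; log2 fold change -1.88, edgeR adjusted p = 1.22e-06), and Nfe2l2, the oxidative-stress factor, was higher (log2 fold change 0.66, edgeR adjusted p = 0.00011). Of 7 tested targets of KLF15 and KLF9, 2 were higher and none lower, Bcat2 (log2 fold change 0.61, edgeR adjusted p = 6.05e-05) and Prodh (log2 fold change 0.91, edgeR adjusted p = 0.0172), both enzymes of amino-acid breakdown. Without adult replicate 1 the call of Prodh was lost (edgeR adjusted p = 0.0642), and without fetal replicate 3 Thbd, the anticoagulant receptor thrombomodulin, was a further KLF2 and KLF4 target that fell (log2 fold change -1.93, edgeR adjusted p = 3.63e-05).

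Among the Sox partners and targets, 2 of 4 tested genes of beta-catenin signalling were lower and none higher in adult than in fetal cells. Ctnnb1, beta-catenin itself, went from 566 ± 38.9 to 282 ± 13.9 CPM (SD, n = 3; log2 fold change -1.01, edgeR adjusted p = 2.41e-06), and Lef1, a nuclear partner of beta-catenin, from 4.21, 2.997 and 7.38 CPM in fetal to at most 3 counts in each adult library (edgeR adjusted p = 3.72e-05). Of 7 tested SoxC targets, 4 were lower and 2 higher, in opposite directions for Tead2 (log2 fold change -2.61, edgeR adjusted p = 6.18e-08) and the tubulin gene Tubb3 (log2 fold change 2.79, edgeR adjusted p = 7.79e-06). Of 7 tested cartilage genes of the Sox5 and Sox6 programme, 4 were lower and 2 higher. Acan, the proteoglycan aggrecan, went from 106 ± 15.04 CPM in fetal to 2 counts in each adult library (edgeR adjusted p = 1e-09), while Comp, another cartilage matrix gene, was higher in adult cells (log2 fold change 2.08, edgeR adjusted p = 8.33e-05). The call of the other higher gene, Col11a2, was lost without fetal replicate 3 (edgeR adjusted p = 0.0536).

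The remaining 22 members were not tested for lack of counts. No count was found in any library for 8 of them, Foxb1, Foxb2, Foxd1, Foxe3, Foxi1, Foxi3, Foxn4 and Sox14, which allows up to 3 counts, or 0.132 to 0.229 CPM depending on the library. Foxh1, Foxj1 and Sox15 had at most 3 counts in every library. Counting did not use strand, and Foxh1, Sox15 and Foxp3 share exon bases with an overlapping gene of the table, while no tested member does. Of the 11 with more, Foxe1, a thyroid and palate factor, had 9, 15 and 22 counts in the fetal, 2, 3 and 0 in the neonatal and 1, 0 and 0 in the adult libraries. Every fetal library held more of its counts than any older one. Foxp3, Foxa1 and Foxa3, Klf1 and Klf14 and Sox2 never exceeded 8 counts. Limits set from counts take in only the error of counting, since the labels name no molecular tags that would mark PCR copies.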

How the data were processed

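RNA of 9 rat cardiac fibroblast cultures was sequenced, 3 libraries for each of 3 ages. The deposited gene counts were made by the authors with featureCounts 1.6.3 on an rn6 annotation, per the file headers, with no strand or multi-mapping option given, so the program's defaults are taken to apply: unstranded reads, without those mapped to several places. The submitters' processing notes also list FastQC, Trimmomatic 0.39, STAR 2.5.2b and DESeq2, the last with no version. Exon lengths came from the same deposited table, and the authors' other deposited table gave normalized signal for 12786 genes, in which 100% of values were the count over a size factor of the library (within 0.001%), used only for that check. The number of per-sample columns left unused was 0.

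The main test was edgeR 4.0.16 under R 4.3.3 on the counts (filterByExpr by age, TMM, robust glmQLFit and glmQLFTest, age as the only term, all 9 libraries), with Benjamini-Hochberg adjustment over 11337 genes and a threshold of 0.05. SEs came from each fold change and its F statistic. CPM used TMM-scaled library sizes, and RPKM divided CPM by exon length in kilobases. The scripts were tested on simulated data, where part of the changed genes was missed and a few unchanged genes were called, and the mark for the share recovered was lowered after it had been missed. Alternatives were scaling by library size only, DESeq2 size factors, the DESeq2 1.42.0 Wald test, no filter, pair-only fits, counts thinned to 13392825 per library, a replicate block and leaving out each library. Counts of pathway genes without fetal replicate 3 or adult replicate 1 were added after seeing the data. Totals of 13392825 to 22850491 counts put 3 counts at 0.132 to 0.229 CPM.

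The members and lists were chosen with earlier results of these data known. Values in every library were given for the 6 members per pair with the largest called fold change and at least 2 CPM in the higher age, the 3 per family with the highest RPKM, and a set panel of known factors. Other members were named with their calls. The values of 1 untested member are not reported here. No 2 libraries of an age agreed within sampling noise. Promoter windows were RefSeq GRCr8, searched on both strands. All 61 symbols were current in RefSeq.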

Additional observations from a re-analysis of the deposited data

How the results depend on the processing

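No value changed sign among the members' called differences. Of 59 called differences (39 members, 3 pairs of ages), 58 kept their call with DESeq2 size factors, with the DESeq2 Wald test, without a filter and after thinning, 56 with scaling by library size only, 55 of 58 in fits of 1 pair of ages, and 51 to 59 when 1 library was left out. Calls were also gained, 8 with scaling by library size only and 7 in fits of 1 pair of ages. Without fetal replicate 3 there were 13 gained, and without adult replicate 1 there were 8. Leaving out 1 library at a time gave 2476 to 4679 genes called for neonatal against fetal and 3 to 8 members lower in that pair. The 2476 genes came without neonatal replicate 2. For adult against neonatal it gave 6210 to 8322 genes called in either direction and 3 to 7 members higher. Members outside the 39 could enter these numbers, because the filter on low counts was run again each time. Replicate numbers did not pair the samples: none of the 9 same-numbered pairs correlated above 0.1 (r of -0.06 to 0.05). In both other ages at once, 0 of 9 libraries correlated best with their own number. With the replicate block 12, 26 and 21 members passed in neonatal against fetal, adult against fetal and adult against neonatal, as without it. Foxj2 (edgeR adjusted p = 0.0527) was lost and Klf9 (edgeR adjusted p = 0.0314) gained, both in adult against neonatal. Depth limits the 22 untested members and those near 1 CPM, such as Sox7, Sox10 and Foxn1.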

Other observations

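The libraries in which members peaked were uneven. Of the 39 tested members, 12 (30.8%) had their highest level in fetal replicate 3, against 23.7% of all tested genes, among them Foxa2, Foxq1, Sox10 and Sox11. Neonatal replicate 2 held the highest level of 8 members (20.5%, against 6.07% of all genes), which included the 5 Klf genes Klf3, Klf7, Klf9, Klf10 and Klf11. Adult replicate 3 held the highest level of none, against 14.8% of all genes. These are counts over libraries with no test. Epicardial markers, 6 genes, summed to 213 CPM in fetal replicate 3 and 89.6 to 91.8 CPM in the other fetal libraries. Only 2 of these 6 had their highest level of all 9 libraries in fetal replicate 3. T cell markers, 6 genes, summed to 106 to 129 CPM in adult libraries and at most 3.08 CPM in the others. Of these 6, 3 had at most 3 counts in every adult library, 1 of them none. Whether cells of these types were present was not tested.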
